A study of Homo sapiens with 2 samples.

Results

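The genes examined were 10 proteases and deiminases of stratified epithelium that act on filaggrin or at the surface of epithelial cells, chosen by gene name from the non-control probes of the arrays. They were ASPRV1, CASP14, PADI1, PADI3, BLMH, ST14, PRSS8, PRSS27, TMPRSS11D and TMPRSS11E, which are 10 of 43317 gene names, and each had 1 probe with 1 spot among 58201 probes. RNA came from Ca9-22 cells, an oral squamous cell carcinoma (OSCC) line grown with 10% serum, into which a lentivirus had brought either the long noncoding RNA DLEU1 (DLEU1 vector) or no insert (control vector), and both cultures had then been selected with blasticidin (6 mg/ml) for 2 weeks. DLEU1 was made from the integrated vector as a full-length cDNA, and neither the labels nor the methods said whether the infected cells were a pool or a clone. Each vector was represented by 1 RNA on 1 Cy3-labelled Agilent array, so no difference below has a replicate check, a p-value or a replicate SD.

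Filaggrin is made in the upper layers of stratified epithelium as the large precursor profilaggrin, which is cut into monomers that bundle keratin filaments. Peptidylarginine deiminases then turn arginines of filaggrin into citrulline, which loosens it from keratin, and further proteases break it down to free amino acids. Upstream of these steps, membrane-anchored serine proteases activate one another at the cell surface, and Kunitz-type inhibitors restrain them. Some Kazal-type inhibitors restrain epidermal kallikreins. These genes are known for their part in the barrier of skin and of keratinised oral mucosa.

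The probes of the genes on which the results turn are shown by their 3′-most 30 bases out of 60, because the position of a probe in the transcript decides which part of the RNA was read. Sequences are printed 5′ to 3′ as the array files give them, and capitals mark a polyadenylation hexamer (AATAAA or ATTAAA), which lies close to the end of a transcript.
ASPRV1: ttatgccaataattcaattgctgcaaacac
PADI3: gatccatgattctgctttggtccaattgct
PADI1: tcAATAAAaatgtcgacatgcatttcttac
PRSS8: ggcagaaatgATTAAAatgtttgagcacaa
CASP14: aggaagagctggaaaaattccagcaggcca
TMPRSS11D: ctgtacaaacaaatctttgctatactttat

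On hg19 the whole probes lie at chr2:70187246-70187305 (minus strand) for ASPRV1, chr1:17609929-17609988 (plus) for PADI3, chr1:17572442-17572501 (plus) for PADI1, chr16:31142754-31142813 (minus) for PRSS8, chr19:15164420-15164580 (plus) for CASP14 and chr4:68686619-68686678 (minus) for TMPRSS11D. Each was assigned by the array design to a RefSeq mRNA, and all 10 of these transcripts carry the same symbol in current RefSeq annotation. The probe positions themselves were not compared with exons. The CASP14 probe covers 161 genomic bases with 60 bases of its own and therefore crosses a splice junction. A hexamer was found, in the orientation printed, in 2 of the 10 probes (20.0%), those of PADI1 and PRSS8, against 11.2% of all 58201 probes, and the median GC content was 45.0% and 43.3%, respectively.

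Of the 10 genes, 8 were detected on both arrays and 2, CASP14 and TMPRSS11D, on neither. A probe counts as detected where the scanner software marked it as well above the local background, and 48.0% of all gene names were detected on neither array. Of the 8 detected genes, ASPRV1, PADI3 and PRSS8 were at least 2-fold higher with the DLEU1 vector (37.5%), against 9.18% of the 20246 genes detected on both arrays. With the spike-in probes set equal, ASPRV1 alone (1 gene) stayed past 2-fold, and of all genes past 2-fold the share that was higher was 21.2% instead of 48.4%. None of the 8 (0) was at least 2-fold lower, against 9.78% of all genes. The other 5 detected genes differed by less than 2-fold, and 4 of them were on the higher side. The median log2 difference, DLEU1 vector minus control vector, was 0.62 over the 8 genes and -0.07 over all 20246, and 7 of 8 genes and 45.8% of all genes lay above 0, although ST14 and TMPRSS11E turned below 0 with the spike-in probes set equal.

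Levels below are processed signals in scanner units with the 1-sigma error that the scanner software gave for the single spot. Log2 differences were taken after the 75th percentile of each array had been set to 0, with the error combined from both spots. As 1 technical yardstick, the log2 difference varied between replicated spots of a probe with an SD of 0.08 (282 probes), and between different probes of a gene with an SD of 0.47 (4674 genes). Neither holds the variation between cultures.

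**Figure D1:**
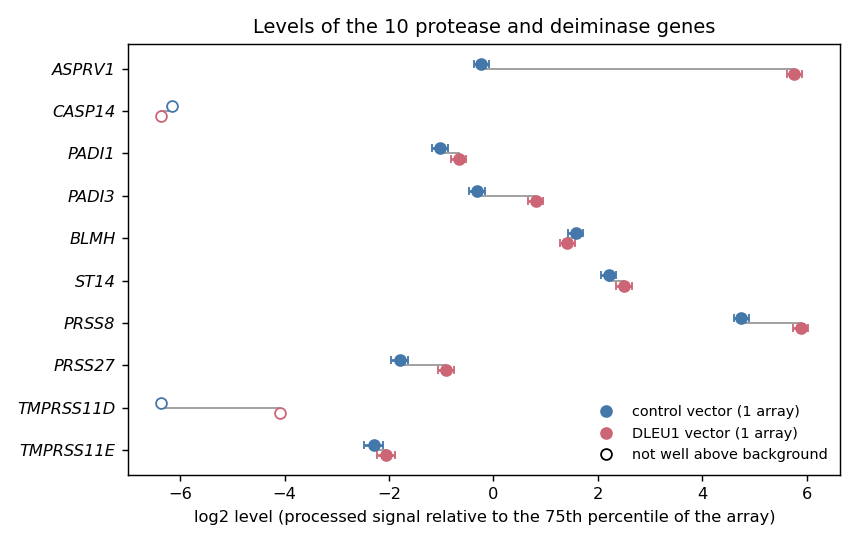
Log2 level of each of the 10 genes under the control vector (blue) and under DLEU1 (red), relative to the 75th percentile of the array, with the error of the single spot given by the scanner software; open circles were not well above background and have no error bar. The arrays stand far apart for ASPRV1 (-0.23 and 5.76), and close together for BLMH (1.58 and 1.41) and TMPRSS11E (-2.29 and -2.06); levels of different probes are not comparable with each other.

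ASPRV1 encodes the retroviral-like aspartic protease SASPase, which cuts profilaggrin at the linkers between its repeats. Its signal was 206.0 ± 20.9 under the control vector and 12753 ± 1275 under DLEU1. The level thus went from just under the 75th percentile of the array (-0.23) to far above it (5.76). The log2 difference was 5.99 ± 0.21 or 63.6-fold, and only 9 of the 20246 genes detected on both arrays had a larger increase. In RNA of whole cultures, more cells expressing a gene and more RNA per cell cannot be told apart, which holds for every value here. Under the settings tried, the ASPRV1 difference lay between 5.56 (normexp background correction) and 6.10 (75th percentile over detected probes).

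PADI3 and PADI1 encode deiminases of the epidermis that act on filaggrin, and PADI3 also acts on the hair follicle protein trichohyalin. The PADI3 signal was 194.2 ± 19.8 under the control vector and 412.7 ± 41.5 under DLEU1, a log2 difference of 1.13 ± 0.21 (2.18-fold). The PADI1 signal was 118.6 ± 12.4 and 148.5 ± 15.3, respectively, a log2 difference of 0.36 ± 0.21. PADI3 thus stood just past 2-fold and PADI1 well short of it, and their probes lie 37.5 kb apart. Around the PADI1 spot, 39.0% of the 100 closest probes with signal under the control vector were lower by 2-fold or more under DLEU1, against 13.1% of all such probes, and the part of this in the PADI1 value was not tested. After the median difference of the 100 nearest spots (-0.40) was taken off, the PADI1 difference was 0.76, whereas it was 0.20 with normexp and 0.0073 with spike-in probes set equal. PADI3 fell short of 2-fold with normexp (0.85) and with spike-in probes set equal (0.77), and was past it under 9 of 11 other settings. Among those 9, no filter on detection, the signal limit and the mean of probes could not change the value of a single-probe gene. The series values repeat the same signal.

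The deiminase genes form a cluster of 5 genes, whose probes span 334 kb of chromosome 1 in the order PADI2, PADI1, PADI3, PADI4 and PADI6. PADI1 and PADI3 were detected on both arrays. The other 3 deiminases were detected on neither array, so no change of theirs was readable at this signal over background.

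CASP14 and BLMH act on filaggrin after deimination. CASP14 encodes caspase 14, a caspase of cornifying epithelium that takes part in the breakdown of filaggrin and not in apoptosis. Its signal was 3.42 ± 2.91 under the control vector and 2.87 ± 2.89 under DLEU1, not well above background on either array, and no fold is given. By the software's weaker mark, the CASP14 spot was positive and significant against background under the control vector only, although its signals differed by less than their errors. Around the CASP14 spot, 22.0% of the 100 closest such probes were lower by 2-fold or more. BLMH encodes bleomycin hydrolase, a cytosolic cysteine aminopeptidase that releases free amino acids from filaggrin fragments. Its signal was 722.1 ± 72.3 and 626.6 ± 62.7, respectively, and the log2 difference of -0.17 ± 0.20 was smaller than its error. BLMH was the only 1 of the 8 detected genes on the lower side.

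The membrane-anchored serine proteases were ST14, PRSS8, PRSS27, TMPRSS11D and TMPRSS11E. PRSS8 encodes prostasin, which is held in the membrane by a lipid anchor and activates the epithelial sodium channel. Its signal was 6493 ± 649 under the control vector and 13882 ± 1388 under DLEU1, a log2 difference of 1.13 ± 0.20 (2.20-fold). ST14 encodes matriptase, the transmembrane protease that acts together with prostasin and is needed for profilaggrin processing in mouse epidermis. Its signal was 1120.1 ± 112.1 and 1333.4 ± 133.4, respectively, a log2 difference of 0.29 ± 0.20. Of this pair, prostasin was the one past 2-fold. PRSS8 was past 2-fold under 10 of 11 other settings. Among those 10, no filter on detection, the signal limit and the mean of probes could not change the value of a single-probe gene, and the series values repeat the same signal. With spike-in probes set equal, PRSS8 stood at 0.78 and ST14 turned to -0.07. With the median of the nearest spots (-0.25 around ST14) taken off, ST14 stood at 0.54.

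PRSS27 encodes marapsin, a membrane-anchored serine protease of squamous epithelia. Its signal was 69.7 ± 7.79 under the control vector and 125.2 ± 13.01 under DLEU1, a log2 difference of 0.88 ± 0.22 (1.84-fold). The value was larger than its error but under 2-fold in all 10 other settings that kept the gene, from 0.53 to 0.99. No filter on detection and the mean of probes could not change this single-probe value, and the series values repeat the same signal. On chromosome 16, PRSS27 shares a stretch of 139 kb with PRSS33, PRSS41, PRSS21 and PRSS22. PRSS22 encodes a tryptase of airway epithelium and was higher by 3.43, from a signal of 279.5 to 2928. PRSS33, PRSS41 and PRSS21 were detected on neither array. The probes at both ends of the stretch were thus higher with the DLEU1 vector, by different amounts, and the ones between them were not readable.

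TMPRSS11D and TMPRSS11E encode the airway trypsin-like protease HAT and the squamous epithelial protease DESC1. The TMPRSS11E signal was 49.5 ± 6.24 under the control vector and 56.5 ± 6.80 under DLEU1, and the log2 difference of 0.23 ± 0.25 was smaller than its error. It turned to -0.13 with spike-in probes set equal. The TMPRSS11D signal was 2.92 ± 2.93 and 13.8 ± 3.25, respectively. By the weaker mark, the TMPRSS11D spot was positive and significant under DLEU1 only, but it was well above background on neither array, so no fold is given. The lowest detected level of any probe was -4.09 for the control vector and -4.04 for DLEU1, and TMPRSS11D reached -4.10 in the latter, just under it.

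Between TMPRSS11D and TMPRSS11E, whose probes lie at the ends of a cluster of 657 kb on chromosome 4, lie TMPRSS11A, TMPRSS11F and TMPRSS11B. TMPRSS11A and TMPRSS11F were detected with the DLEU1 vector only. The brighter TMPRSS11A probe went from 3.87 to 35.2 in signal, at least 2.55-fold, and TMPRSS11F went from 7.03 to 36.9, at least 2.67-fold, where the bound uses the lowest detected level of the other array, or the probe's own level there if that was higher. A share of 26.0% of the probes around the TMPRSS11F spot were at least 2-fold lower. TMPRSS11B was detected on neither array.

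**Figure D2:**
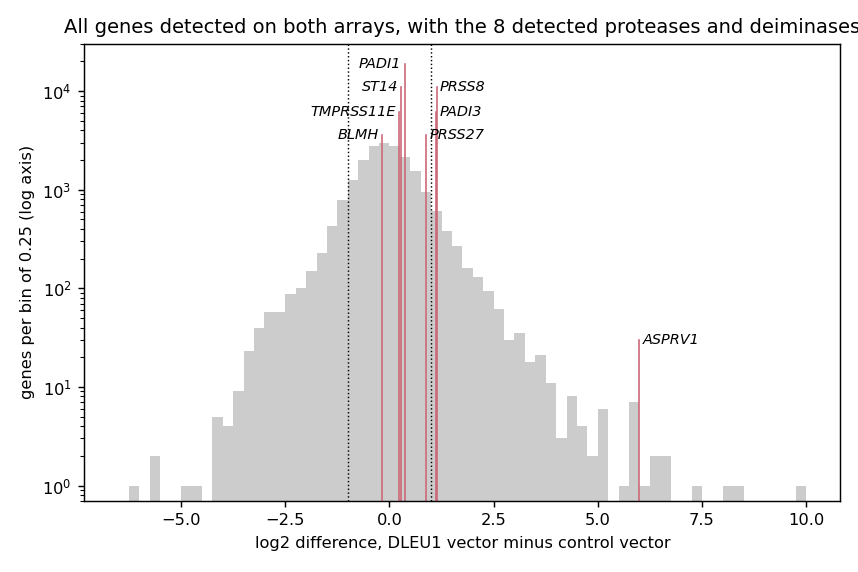
Number of genes per bin of log2 difference (DLEU1 vector minus control vector, bins of 0.25, log axis) for the 20246 genes detected on both arrays, with red lines at the 8 detected proteases and deiminases and dotted lines at 2-fold. ASPRV1 (5.99) stands in the far right tail, PADI3 and PRSS8 (1.13 each) just past 2-fold, and the other 5 genes inside it.

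The order of the 8 differences was ASPRV1, PRSS8, PADI3, PRSS27, PADI1, ST14, TMPRSS11E and BLMH. PRSS8 and PADI3 differed from each other by less than their errors, and so did PADI1, ST14 and TMPRSS11E. These are software errors of single spots and leave out the spread between different probes of a gene (SD 0.47), so the order was not tested. The step from ASPRV1 to the next gene was many times the error of either spot. A total of 1514 genes (7.48%) had a larger increase than PRSS8, and 1532 (7.57%) a larger one than PADI3. For TMPRSS11E this share was 33.3% and for BLMH 55.6%.

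To place these genes, the substrates, partners and relatives of the 10 were read from fixed lists. With the spike-in probes set equal, every log2 difference shifts by -0.36, which puts TMPRSS6 and the marker CDH1 short of 2-fold, CASP2, CASP8 and EPCAM past 2-fold on the lower side, and CAPNS1, FURIN, CASP4, CASP9, SPINK7 and the marker PMEL below 0 in the lists that follow. Filaggrin itself (FLG) had 3 probes, all detected on both arrays and all higher with the DLEU1 vector. The brightest went from 196.4 to 2196 in signal (log2 difference 3.52), and the other two differed by 3.07 and 2.40. Of the 7 genes of the filaggrin family with fused S100 domains, FLG was the only 1 detected on both arrays, and 4 were detected with the DLEU1 vector only, against 2.84% of all gene names. These were CRNN (at least 283-fold), TCHHL1 (at least 28.6-fold by its brighter probe), FLG2 (at least 11.3-fold) and RPTN (at least 9.44-fold). HRNR and TCHH, the trichohyalin gene, were detected on neither array.

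Of 9 other genes of profilaggrin cleavage and breakdown, 6 were detected on both arrays, with a median difference of 0.35. KLK5, a kallikrein of the cornified layer, was at least 2-fold higher (3.03, from 469.8 to 3729 in signal). KLK7 differed by 0.66, the calpain genes CAPN1 and CAPNS1 by 0.37 and 0.34, and the proprotein convertase FURIN by 0.29. CAPN2 was the lowest (-0.56). KLK14, PCSK6 and HAL, the histidase gene whose product uses histidine set free from filaggrin, were detected on neither array.

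The 9 other caspases read were all detected on both arrays, and none (0) of them differed by 2-fold. Of all genes detected on both arrays, 9.18% were higher and 9.78% lower past 2-fold. Their median was -0.24, from CASP4 (0.05) to CASP2 (-0.75). CASP14, in contrast, was detected on neither array.

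The other type II transmembrane serine proteases held both detected and undetected genes. Of 14, 6 were detected on both arrays, with a median difference of 1.31. At least 2-fold higher were 4 of these, against 9.18% of all genes detected on both arrays. TMPRSS13 was higher by 2.18, TMPRSS4 by 1.99, TMPRSS7 by 1.41 and TMPRSS6 by 1.21. The TMPRSS6 signal was low on both arrays, 25.6 under the control vector and 57.7 under DLEU1. The second probes of TMPRSS13 (2.82) and TMPRSS4 (2.10) were also past 2-fold, whereas the second TMPRSS6 probe was not detected. TMPRSS2 was the lowest (-0.61), with a signal of 28.3 and 18.1. The trypsin-like genes PRSS22 (3.43) and TPSG1 (0.56) were the 2 of 5 in their list that were detected on both arrays.

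Kunitz-type and Kazal-type inhibitors were also read. SPINT1 encodes HAI-1, the inhibitor of matriptase and prostasin, and was higher by 1.59, from 1171 to 3426 in signal. SPINT2, which encodes the related HAI-2, differed by 0.36. SPINK5 encodes LEKTI, an inhibitor of epidermal kallikreins, and its 3 probes were detected with the DLEU1 vector only, the brightest at least 26.2-fold higher (15.2 and 387.3 in signal). The brighter SPINK7 probe differed by 0.07, but a dimmer SPINK7 probe was lit with the DLEU1 vector only, at least 5.21-fold, so the probes of this gene disagree. SPINK6 and SPINK9 were detected on neither array.

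Of 8 substrates of these proteases, 6 were detected on both arrays, of which 1 was higher and 2 lower past 2-fold, and the median was -0.63. Over all genes detected on both arrays, these shares were 9.18% and 9.78%. SCNN1A, the alpha subunit of the epithelial sodium channel, was higher by 2.41. SCNN1G, the gamma subunit, was detected with the DLEU1 vector only (at least 1.42-fold), and the beta subunit gene SCNN1B on neither array. CDCP1 fell by 1.67 and PLAU, the urokinase gene, by 1.30, both on the log2 scale. F2RL1, which encodes the receptor PAR-2 that surface proteases cut, differed by -0.42, and EPCAM, a matriptase substrate, by -0.78. Substrates thus lay past 2-fold on both sides.

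**Figure D3:**
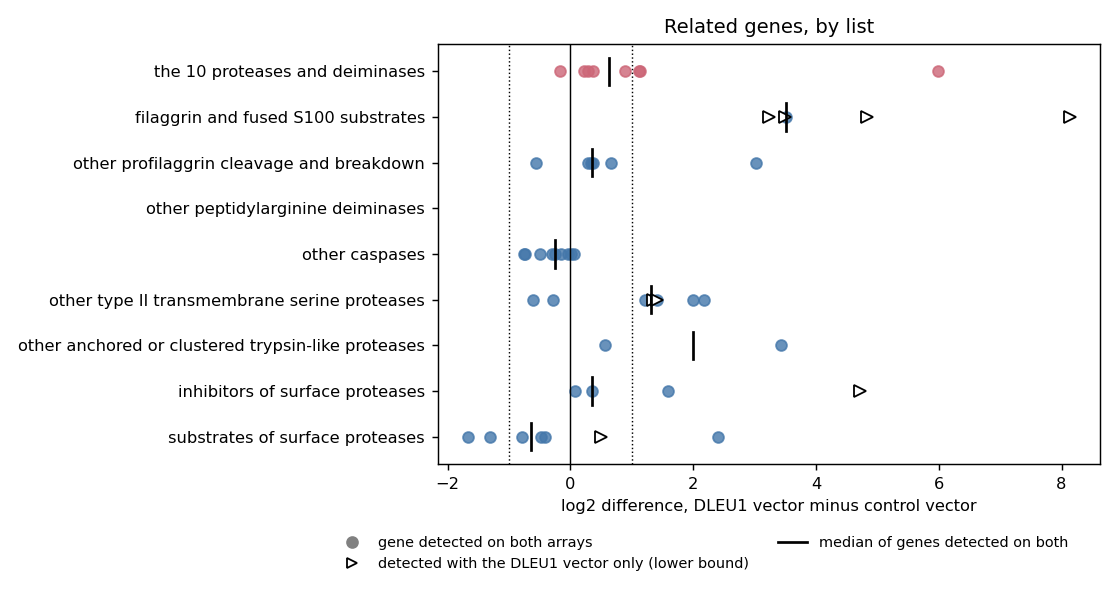
Log2 difference (DLEU1 vector minus control vector) of the 8 detected proteases and deiminases (red) and of related genes by list (blue, each from its brightest detected probe), with medians as bars, 2-fold as dotted lines, and triangles for lower bounds of genes detected with the DLEU1 vector only. In the filaggrin family, FLG lies at 3.52 and the bounds of 4 genes, by their brighter probe, at 3.24 or above, while HRNR and TCHH were not detected. The other caspases lie between -0.75 and 0.05, and no other deiminase was detected.

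The labels were checked by DLEU1, and markers of cell types were read beside it. Both arrays held the same cell line, so the markers cannot check which array had which vector. The brightest DLEU1 probe was higher by 2.74 with the DLEU1 vector, and the other two by 0.85 and 0.54. All 6 squamous epithelial markers were detected on both arrays, with a summed signal of 58302 under the control vector and 303892 under DLEU1. At least 2-fold higher were 5 of them (KRT5, KRT14, KRT6A, CDH1 and DSG3, by 1.04 to 2.91), against 9.18% of all genes detected on both arrays. TP63 was higher by 0.96, short of 2-fold. CDH1 was the lowest of the 5, and its spot had 57.0% of its neighbours at least 2-fold lower. Of the markers of other cell types, 2 of 5 fibroblast, 3 of 4 leukocyte, 2 of 3 endothelial and 1 of 3 melanocyte genes were detected on both arrays. The summed signal of the fibroblast list was 370.4 under the control vector and 5258 under DLEU1, nearly all of it from COL1A1 (higher by 3.99), while COL1A2, COL3A1 and DCN were detected on neither array. The endothelial sum was 107.7 and 648.1, carried by 1 VWF probe (3.70) that a second VWF probe did not follow (-0.07). The leukocyte sum was 302.3 and 246.9, and the melanocyte sum 357.8 and 372.0. Of the leukocyte list, CD14 was at least 2-fold lower (-1.60, from 62.1 to 20.0 in signal). The part of these markers in the differences above was not tested.

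**Figure D4:**
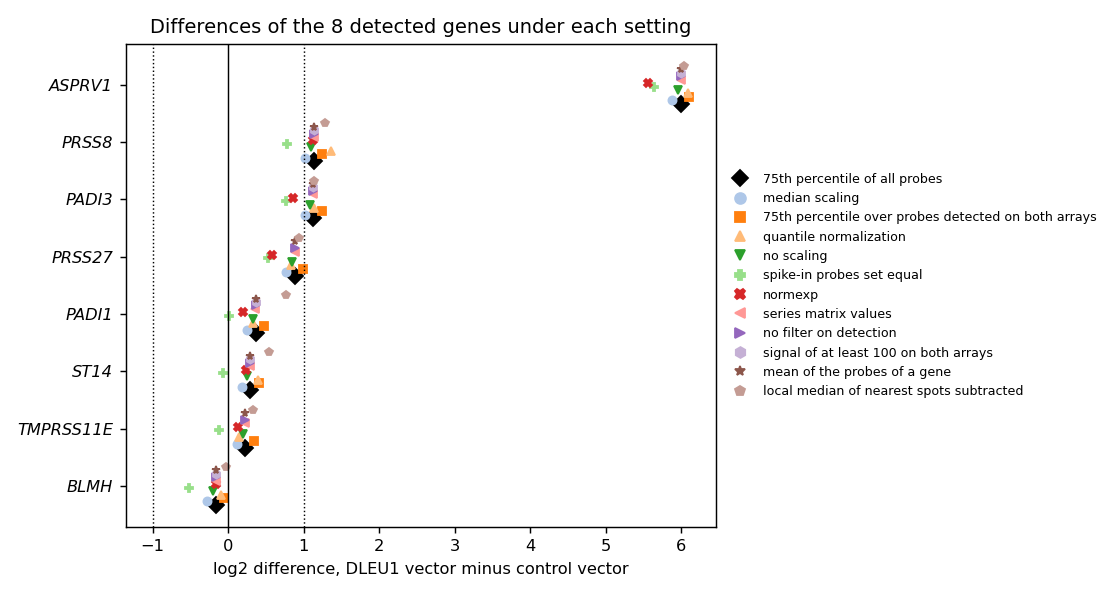
Log2 difference (DLEU1 vector minus control vector) of each of the 8 detected genes under the main setting (black diamonds, 75th percentile of all probes) and 11 others, with 2-fold as dotted lines. ASPRV1 stays between 5.56 and 6.10, PADI3 and PRSS8 cross the 2-fold line under 2 and 1 settings, respectively, and the remaining genes stay inside 2-fold throughout. No filter on detection, the signal limit and the mean of probes cannot change the value of these single-probe genes, and the series values repeat the same signal.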

How the data were processed

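The study compared Ca9-22 cells carrying a DLEU1 vector or a control vector, with 1 RNA and 1 array per vector. The authors labelled 100 ng of total RNA with Cy3 and hybridised it to Agilent SurePrint G3 human arrays, and Agilent Feature Extraction 10.7 (10.7.3.1 in the file header) gave the deposited intensity of each spot. The authors' deposited series values are linear and lay within 0.497% of the scanner's processed signal, so they served as an alternative. No direction is open, since each array has a single colour.

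Control spots and outlier spots (84 and 103) were left out, repeated spots of a probe were averaged, and log2 of the processed intensity was taken minus the 75th percentile of each array. A gene was read from its brightest detected probe, and a gene counted as higher or lower past 2-fold. Errors are the scanner software's 1-sigma error of each spot. No spot was saturated (0), and 47.6% and 48.1% of the probes were well above background. With 1 array per group no test was possible, and this number of arrays limits the precision.

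All 10 genes were described. The genes and the lists of related genes were chosen with earlier results of these data known, and some genes of the lists are not reported here. The calculation was tested on simulated data. Alternatives were other scalings, normexp with an offset of 50 (limma 3.58.1 in R 4.3.3), other filters and thresholds, the mean of all probes, and subtraction of the median of the 100 nearest spots. Python 3.11.15, numpy 2.4.6 and pandas 2.3.3 were used. Probe positions are hg19 as in the files, and RefSeq (GRCh38.p14) was used for names only.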

Additional observations from a re-analysis of the deposited data

How the results depend on the processing

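The median log2 difference of the 8 detected genes (0.62) stayed above 0 under every alternative run. Scaling to the median gave 0.51, to the 75th percentile of the detected probes 0.73 and to equal spike-in probes 0.27. Normexp gave 0.41, a signal limit of 100 gave 0.74 and subtraction of the local median 0.85. Of the 3 genes past 2-fold on the higher side, 1, ASPRV1, was left with spike-in probes set equal and with a 3-fold threshold. With normexp 2 were left. The count was 4 with a 1.5-fold threshold, and 4 of 10 with no filter on detection, which includes TMPRSS11D, detected on neither array. No gene (0) was 2-fold lower under any alternative. Scaling to the median, to the 75th percentile of the detected probes or to equal spike-in probes shifts every gene by the same constant. Against the main setting, these scalings moved the median of all genes by -0.11 (median), 0.11 (75th percentile of the detected probes) and -0.36 (spike-in probes). The median of the 8 genes and their count past 2-fold follow from that shift by construction. The other thresholds, the signal limit and no filter on detection also change the count or the genes kept by construction. The cause of the changes with normexp and with the local median was not tested. Of 86 single-gene values, 48 moved by less than the SD between repeated spots (0.08). That count is no measure of stability, since it includes settings that could not change a single-probe gene (no filter, signal limit, mean of probes). It also includes the series values, which repeat the same signal. None (0) of the values of ASPRV1, PADI3 and PRSS8 changed sign, whereas ST14 and TMPRSS11E turned below 0 with spike-in probes set equal. Past 2-fold, normexp called 1121 genes higher and 1413 lower, and spike-in scaling 1074 and 3988, against 1858 and 1981 in the main setting. Each of these is out of 20246 genes. The limit on signal called 1026 and 1433 of 14112 genes, and no filter on detection 4232 and 3807 of 43317. As these totals differ, the last counts cannot be set directly against those of the main setting. No paired analysis was possible because each vector had 1 array, and for the same reason no replicate could be left out. Signal over background limits CASP14 and TMPRSS11D, for which no change was readable.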
